A study of Homo sapiens with 2 samples.

Results

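The EGR and NAB genes were examined as targets of EGR1 in t-HESC, a human cell line of immortalised stromal cells from the endometrium, the lining of the uterus. They comprise the 4 genes EGR1, EGR2, EGR3 and EGR4 and the 2 co-repressor genes NAB1 and NAB2. The members are the intervals enriched by chromatin immunoprecipitation and sequencing (ChIP-seq) with an antibody against EGR1 that lay within 10 kb of any of these genes. There were 17 such intervals among the 7709 of the whole list, or 0.221%. The study held 1 EGR1 ChIP library and 1 input library, made from sonicated nuclei of the same line. The cells received no treatment and were grown in DMEM/F12 medium with 10% fetal bovine serum, antibiotics and 500 ng/ml puromycin. Each library came from this 1 line without a replicate, so no variation between cultures could be measured and no test between conditions was possible. The depth behind each interval is unknown, as no read totals were used here. An input library was made, but enrichment over it was not analysed here. The intervals are therefore described as called by the authors, and are not shown to be functional binding sites.

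EGR1, EGR2, EGR3 and EGR4 are zinc-finger transcription factors encoded by immediate early genes, which are transcribed within minutes of a growth factor or serum stimulus. Their closely related zinc fingers recognise a GC-rich element. NAB1 and NAB2 are nuclear proteins that bind an inhibitory domain of EGR1, EGR2 and EGR3 and repress transcription driven by them. EGR4 lacks that domain. NAB2 is itself known as a gene induced by EGR factors, and the EGR1 promoter is known for CArG boxes, the elements bound by serum response factor.

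The sequences before 4 gene starts are shown because they hold, or lack, exact matches to the elements that EGR factors and serum response factor recognise. The genes have intervals nearby (EGR1, NAB1 and NAB2) or none (EGR4). Each is the 250 bases before a RefSeq start on build GRCh38.p14, written 5′ to 3′ in the direction of transcription. Capitals mark matches on either strand to the EGR element GCGNGGGCG, which takes in the consensus forms GCGTGGGCG and GCGGGGGCG, and to the CArG box. The EGR1 stretch is chr5:138465229-138465478, plus strand. The NAB2 stretch is chr12:57088864-57089113, plus strand. The NAB1 stretch lies before the first of 3 listed starts, at chr2:190648645-190648894, plus strand. The EGR4 stretch is chr2:73293549-73293798, minus strand.
EGR1: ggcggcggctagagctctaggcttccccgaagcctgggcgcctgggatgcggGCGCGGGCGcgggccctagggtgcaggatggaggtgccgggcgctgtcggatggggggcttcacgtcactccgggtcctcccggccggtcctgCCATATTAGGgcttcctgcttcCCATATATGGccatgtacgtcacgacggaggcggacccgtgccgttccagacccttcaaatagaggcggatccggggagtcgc
NAB2: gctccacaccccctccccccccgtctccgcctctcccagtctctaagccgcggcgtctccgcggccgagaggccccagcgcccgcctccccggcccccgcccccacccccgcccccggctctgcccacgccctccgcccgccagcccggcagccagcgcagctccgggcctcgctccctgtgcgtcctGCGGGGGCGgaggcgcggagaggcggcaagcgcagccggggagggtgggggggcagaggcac
NAB1: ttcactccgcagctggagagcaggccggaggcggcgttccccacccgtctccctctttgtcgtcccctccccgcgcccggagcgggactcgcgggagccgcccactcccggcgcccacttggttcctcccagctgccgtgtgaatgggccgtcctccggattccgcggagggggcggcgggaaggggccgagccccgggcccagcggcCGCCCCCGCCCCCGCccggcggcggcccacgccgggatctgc
EGR4: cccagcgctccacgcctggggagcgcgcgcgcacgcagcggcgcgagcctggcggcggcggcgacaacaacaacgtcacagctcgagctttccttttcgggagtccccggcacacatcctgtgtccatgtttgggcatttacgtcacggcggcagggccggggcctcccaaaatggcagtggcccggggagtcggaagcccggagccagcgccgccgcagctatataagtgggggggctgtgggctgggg

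Among these promoters, exact matches to a consensus EGR element stood before NAB1 and NAB2. The NAB2 promoter held GCGGGGGCG, whose first base lay 62 bases before the start. The NAB1 promoter held the same element on the opposite strand in a pair of overlapping copies that begin 42 and 36 bases before the first start. A GCGTGGGCG element began at base 14 after the first NAB1 start, within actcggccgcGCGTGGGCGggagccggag. EGR1 had no exact consensus match before its start. It held GCGCGGGCG, which differs from both forms at the fourth base, beginning 198 bases before the start. Its CArG boxes began 105 and 83 bases before the start. EGR4 held no exact match to either element in its 250 bases, and near matches were not counted. EGR3 had no promoter listed. RefSeq lists 3 starts for EGR2, and none of the 3 stretches before them held an EGR element, although EGR2 also had intervals nearby. After the second EGR2 start, GCGCGGGCG on the opposite strand began at base 9, within gcagtcgcctCGCCCGCGCttgctgccgg. The same form on the opposite strand began at base 9 after the second NAB1 start. The stretch before the third EGR2 start, 2801 bp after the first, held a CArG box within gttcctcagtCCATATATGGgcagcgacg, with its first base 71 bases before that start. In the 250 bases before all 35116 starts in the table, GCGTGGGCG was found in 0.72%, GCGGGGGCG in 4.72%, GCGNGGGCG in 8.41% and the CArG box in 1.16%. With the searched bases after the start included, these shares were 0.795%, 5.07%, 9.43% and 1.29%. These matches are a description of letters. They were not placed on the intervals, whose positions are on GRCh37. The second EGR2 start is 392 bp after the first. If the first start is the same on both builds, the match after the second would lie inside an EGR2 interval. That interval runs from 393 to 660 bp after the first start.

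Intervals lay near 5 of the 6 genes: 3 of the 4 EGR genes and both NAB genes. NAB2 had 5 intervals, EGR1 had 4, EGR2 and NAB1 had 3 each, EGR3 had 2 and EGR4 had none. To give these counts a background, the chromosome of each gene was tiled with windows as long as the gene with 10 kb on either side. At least 1 interval lay in 3.88% of such windows on chromosome 5 for EGR1, 4.55% on chromosome 10 for EGR2, 3.4% on chromosome 8 for EGR3 and 3.98% on chromosome 2 for EGR4. The corresponding shares were 10.5% on chromosome 2 for NAB1, whose window is longer, and 6.56% on chromosome 12 for NAB2. Windows include stretches without genes and unsequenced gaps, so the share for windows around genes may be higher. It was not measured, because gene models on GRCh37 beyond these 6 genes were not used here. No member lay close to the limit of 10 kb. The farthest members were the EGR2 intervals 6058 and 6520 bp from the gene, and the nearest interval outside was 10110 bp from NAB2, with a score of 24.

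**Figure D1:**
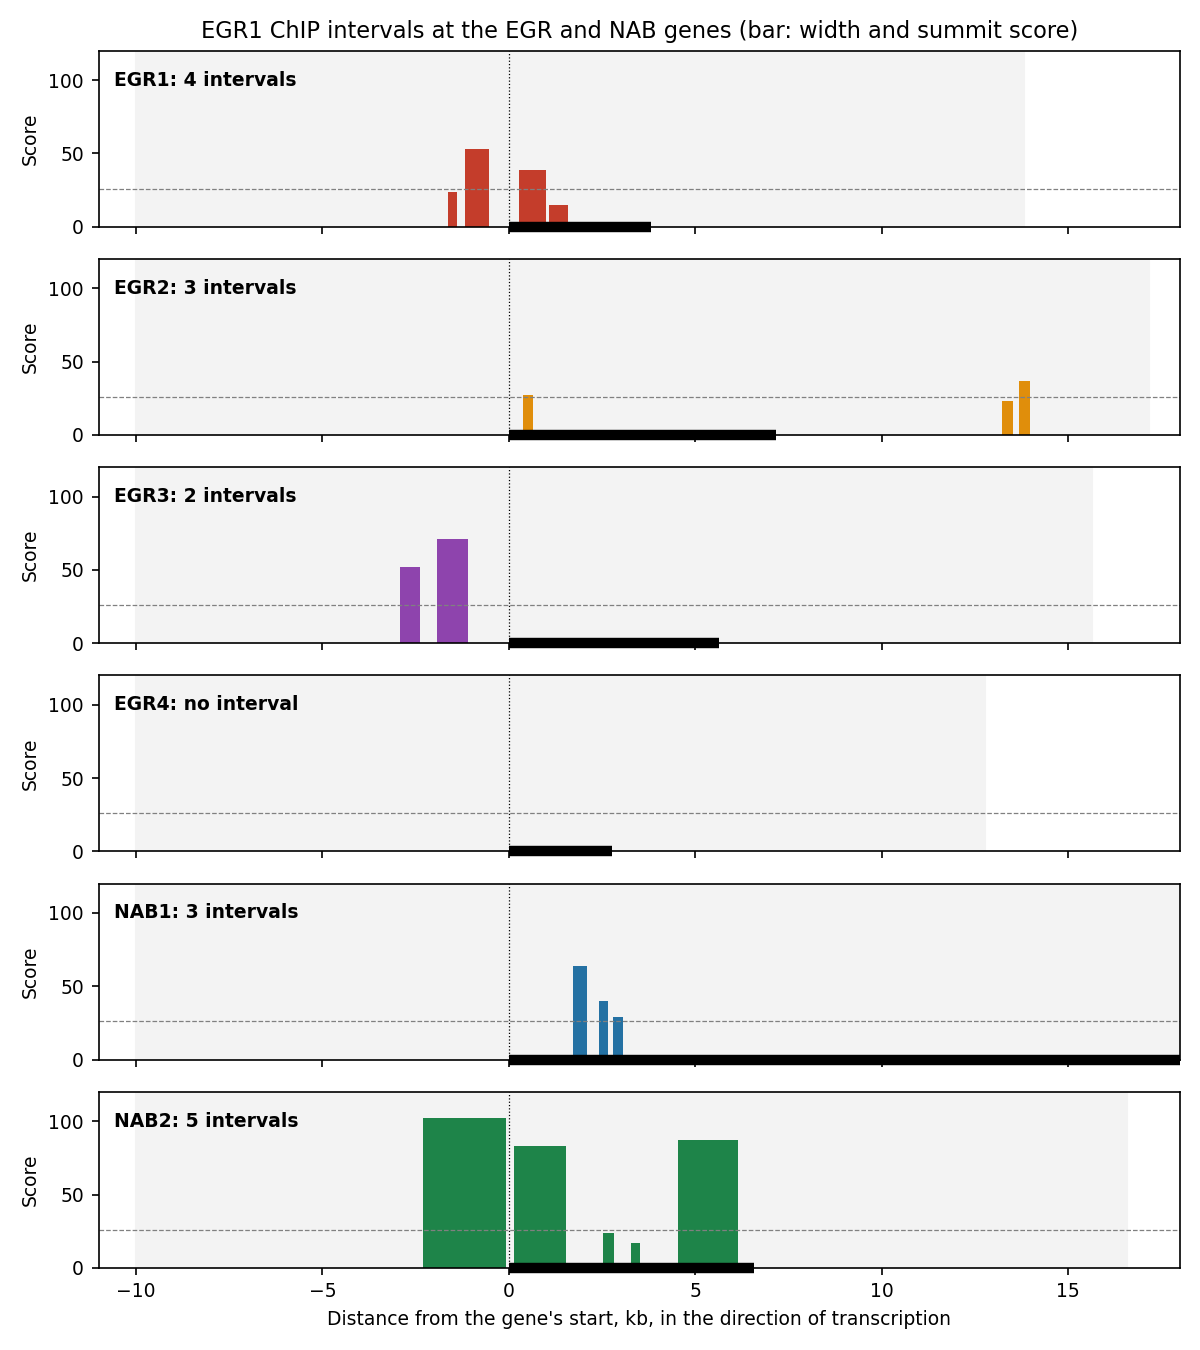
Intervals at the 6 genes, each panel drawn from the gene's start (0) in the direction of transcription, in kb. Bars span the width of an interval and their height is the authors' summit score (no unit given), black bars are the gene spans, cut at the panel edge for NAB1, grey shading is the 10 kb rule, and the dashed line is the median score of all intervals, 26; wide bars of 102, 83 and 87 stand at NAB2, and the EGR4 panel is empty.

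The authors gave each interval a summit score, a whole number from 11 to 336 with no stated unit. It is used only to rank intervals within this list. The 17 intervals at EGR and NAB genes had scores of 15 to 102 with a median of 39 (quartiles 24 and 64), beside a median of 26 for all intervals (quartiles 20 and 37). A score at or above 26 was reached by 12 of the 17, or 70.6%, against 51% of all intervals. The 90th percentile of the list, a score of 57, was reached by 5 of the 17, or 29.4%, against 10.2% of all intervals. These 5 were 3 intervals at NAB2, 1 at EGR3 and 1 at NAB1. Intervals at the same gene share their stretch of chromatin and are not independent, so these shares carry no test.

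At EGR1, which encodes the immunoprecipitated factor, the intervals lay on both sides of the gene's start. The gene spans chr5:137801181-137805004 on the plus strand (GRCh37). Its most distal interval, chr5:137799542-137799800, was 259 bp wide with a score of 24. The next, chr5:137800000-137800652, was 653 bp wide, had the highest score of the 4 at 53, and lay 1181 to 529 bp before the start. Inside the gene, chr5:137801466-137802184 was 719 bp wide with a score of 39, from 285 to 1003 bp after the start. The last, chr5:137802274-137802776, had a score of 15, and 97.5% of all intervals scored as high. The start of EGR1 thus fell in a gap of 813 bp between its higher-scored intervals. All 4 joined into 1 site when neighbours at most 1000 bp apart were merged. Upstream of EGR1 and outside the rule, at 15128 bp, an interval of 1073 bp had a score of 78, higher than any of the 4. On the other side the nearest was 17782 bp away, with a score of 42.

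EGR2, known for its part in myelination and hindbrain patterning, had 1 interval inside the gene and 2 beyond its end. The gene spans chr10:64571756-64578927 on the minus strand. The interval in the gene, chr10:64578267-64578534, lay 393 to 660 bp after the most upstream start. Its width was 268 bp and its score was 27, close to the median of all intervals. No other interval lay within 10 kb of it. RefSeq lists further EGR2 starts 392 and 2801 bp after the first on GRCh38.p14, where the gene has the same length of 7172 bp. Past the end of EGR2, on the side where RefSeq has ADO as the next protein-coding gene, chr10:64565392-64565698 had a score of 23. Its neighbour chr10:64564941-64565236, 155 bp away, had a score of 37. ADO was not placed on GRCh37, so its distance from these 2 intervals was not measured. Whether they belong to EGR2 or ADO was not tested. Beyond them the EGR2 region was sparse, with the next intervals 646944 bp upstream and 1358310 bp downstream of the gene.

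Both EGR3 intervals lay upstream of the gene, and none lay in it. EGR3, a family member with roles in muscle spindles and lymphocytes, spans chr8:22545172-22550815 on the minus strand. The interval closer to the gene, chr8:22551915-22552749, lay 1100 to 1934 bp before the start. It was 835 bp wide with a score of 71, which 6.04% of all intervals reached. The more distal interval, chr8:22553185-22553741, was 557 bp wide with a score of 52. They were 435 bp apart. The next intervals were 22388 bp upstream and 28525 bp downstream of EGR3, with scores of 26 and 45.

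EGR4 had no interval within 10 kb, nor within 50 kb. The gene spans chr2:73518057-73520833 on the minus strand, between FBXO41 and ALMS1 in RefSeq. The nearest interval, chr2:73460352-73460806, was 57251 bp away on the downstream side and had a score of 30. On the upstream side the nearest was 92264 bp away, with a score of 22. Most windows of this length on chromosome 2 likewise held no interval. As the depth is unknown, a weaker enrichment at EGR4 may have gone uncalled and is not shown to be absent.

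NAB1 had a tight group of 3 intervals near the 5′ end of the gene. It spans chr2:191511472-191557492 on the plus strand. The first interval, chr2:191513191-191513571, was 381 bp wide with a score of 64, which 7.77% of all intervals reached. It was followed by chr2:191513891-191514144 with a score of 40 and by chr2:191514275-191514541 with a score of 29. All 3 lay 1719 to 3069 bp after the start of the span, and gaps of 319 and 130 bp separated them. Where they lie relative to a promoter depends on the gene model: the span used is 2149 bp longer than the RefSeq gene on GRCh38.p14, which has further starts 188 and 10263 bp after its first. The remainder of NAB1 held no interval, and outside the gene the nearest were 303265 bp upstream and 187897 bp downstream.

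NAB2 had the highest-scored and widest intervals of the 6 genes, in blocks on either side of the start of its span and near its end. The gene spans chr12:57482677-57489259 on the plus strand. The upstream block, chr12:57480369-57482610, was 2242 bp wide with a score of 102. It is the widest interval of the list, and its near edge stopped 67 bp before the start of the NAB2 span. Inside the span, chr12:57482812-57484204 began 135 bp after its start, was 1393 bp wide and had a score of 83. Toward the end of the gene, chr12:57487225-57488826 was 1602 bp wide with a score of 87. RefSeq places the 3′ end of STAT6, a neighbouring transcription factor gene, over that end of NAB2. How far this overlap reaches was not placed on GRCh37. Whether the interval touches STAT6 was therefore not tested, and it is not given to NAB2 alone. Between these blocks lay a pair of short intervals, chr12:57485205-57485500 with a score of 24 and chr12:57485964-57486193 with a score of 17.

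The NAB2 scores were high without being the highest of the list. A score of 102 was reached by 160 intervals (2.08%), 87 by 265 (3.44%) and 83 by 304 (3.94%). In width the blocks ranked higher: 39 intervals (0.506%) were at least as wide as the 1393 bp block and 15 (0.195%) at least as wide as that of 1602 bp. Of all 50 intervals with a width of 1300 bp or more, 3 lay at NAB2. Those 50 had a median score of 71 (quartiles 55.5 and 93). The limit of 1300 bp was chosen after the widths were seen.

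**Figure D2:**
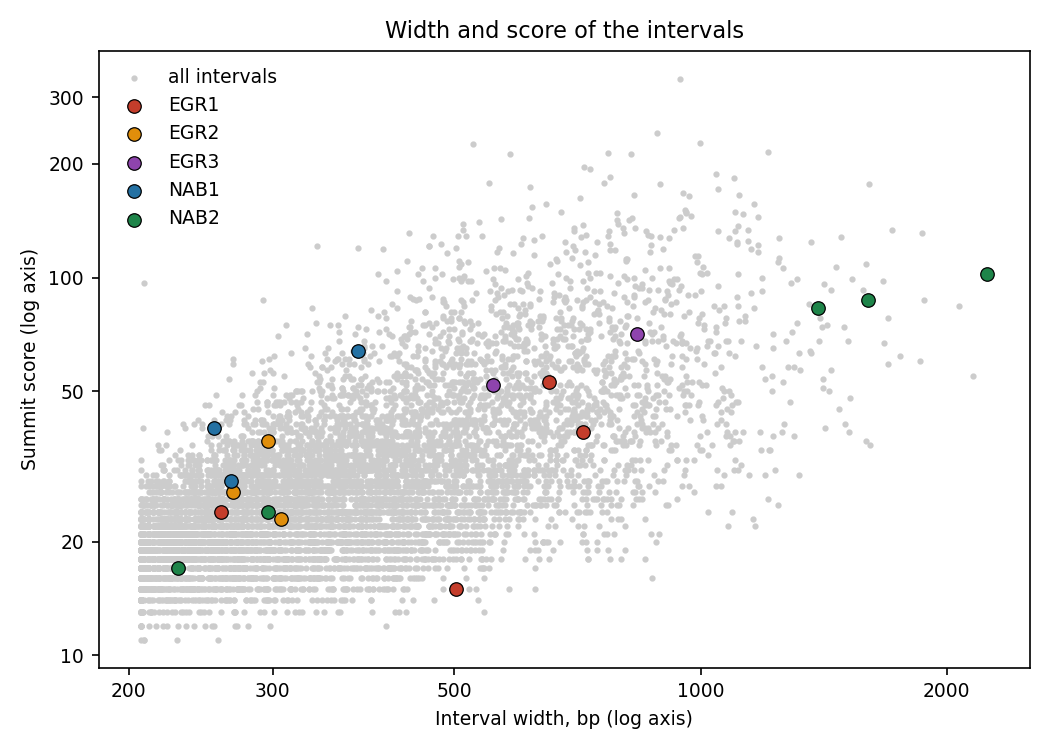
Width in bp (horizontal, log axis) and summit score (vertical, log axis) of all 7709 intervals in grey, with the 17 at EGR and NAB genes in colour by gene. The NAB2 blocks of 1393, 1602 and 2242 bp lie at the right edge, while the EGR2 and NAB1 intervals are 254 to 381 bp wide.

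Measured as covered sequence, the NAB2 neighbourhood stood above every other stretch of its length that was compared. Its 5 intervals covered 5763 of 26583 bp, or 21.7%. Windows of the same length were begun at each interval elsewhere in the list that did not take in a NAB2 interval, 7703 in all. None of them was covered as far, and the highest reached 5289 bp beside a median of 459 bp. As many as 5 intervals were found in 140 of them (1.82%), so the count at NAB2 was matched more often than its covered length. The EGR1 neighbourhood had 2134 of 23824 bp covered, or 8.96%, and 140 of 7704 such windows (1.82%) had as much. EGR3 had 1392 bp covered, which 6.49% of its windows reached, EGR2 had 871 bp, which 19.3% reached, and NAB1 had 902 bp of a longer window, which 28.2% reached. Windows that begin at neighbouring intervals overlap, so these shares are a ranking within the list and not a test.

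Intervals at these genes stood in groups. Of the 17, 16 had another interval within 10 kb, or 94.1%, against 39.4% of all intervals. The exception was the interval inside EGR2. At least 3 others lay within 10 kb of 9 of the 17, all at EGR1 and NAB2, against 5.41% of all intervals. Joined at 1000 bp, the list formed 6573 sites, of which 23 had 4 or more intervals, and EGR1 and NAB2 each had 1 of these. The NAB2 site depends on a gap of exactly 1000 bp, which equals the limit. Membership itself favours grouped intervals, since a gene with several contributes each of them, and whether a group is 1 enriched stretch cut by the peak caller was not tested.

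**Figure D3:**
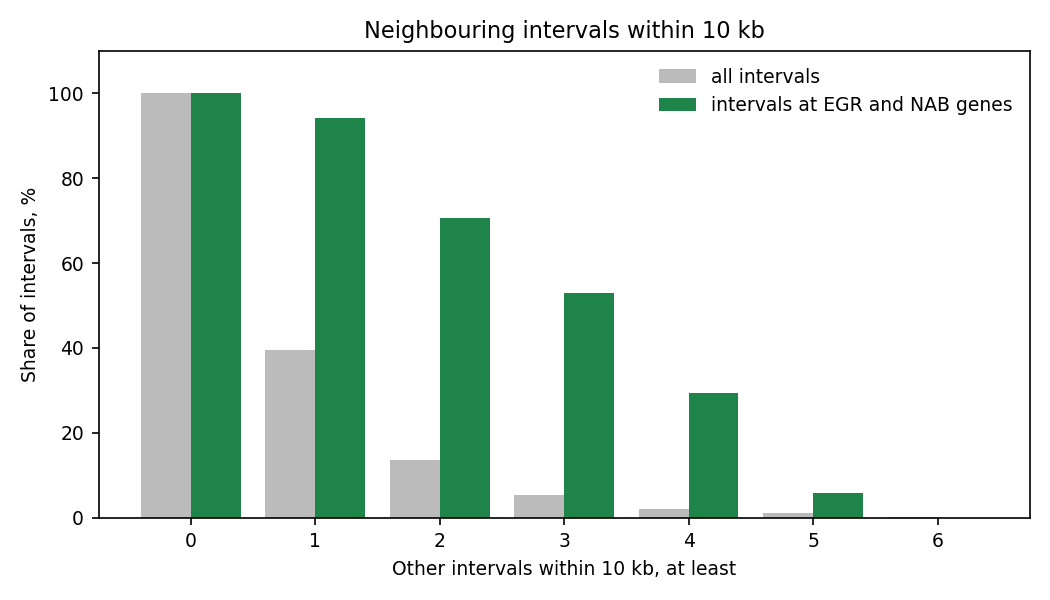
Share of intervals in % (vertical) that have at least the given number of other intervals within 10 kb (horizontal), for all 7709 intervals in grey and the 17 at EGR and NAB genes in green. At 3 or more the shares are 5.41% and 52.9%.

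In the spans used, no gene start of the 6 lay inside an interval. Of the 17 summits, 13 were within 3.1 kb of a start. The farthest of these 13 was 2928 bp away, at NAB1, and the next beyond the limit was 3467 bp away, at NAB2. Measured from the start of each span, the nearest edges were 67 bp away at NAB2, 285 bp at EGR1, 393 bp at EGR2, 1100 bp at EGR3 and 1719 bp at NAB1. RefSeq lists a further EGR2 start 392 bp after its first. If the first start is the same on both builds, the EGR2 interval would begin next to that further start. Within 1 kb of a span start there were 3 summits, 2 at EGR1 and 1 at EGR2. The share of all intervals this close to a start was not measured, as other gene starts on GRCh37 were not used. Membership requires a place near a gene and so favours short distances. By place, 10 of the 17 intervals lay inside a gene span, 5 upstream and 2 downstream. Starts differ between gene models, as the spans of EGR3, EGR4, NAB1 and NAB2 differ in length from those of RefSeq on GRCh38.p14 by 157 to 2149 bp. For NAB2 the RefSeq gene was 220 bp shorter, and at which end was not placed on GRCh37. The intervals that flank the NAB2 start lie 67 bp before and 135 bp after it in the span used, so its place between them depends on the model. If the 220 bp were all at the 5′ end, the RefSeq start would lie inside the interval 135 to 1527 bp after the span start. Summit positions are coarse as well: 15 of the 17 summits, and 77.2% of all, were exact multiples of 32 bp.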

How the data were processed

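Per the labels' protocols, chromatin from sonicated nuclei was immunoprecipitated with an antibody against EGR1, and libraries were size-selected at 200 to 300 bp, amplified by 18 cycles of PCR and sequenced on an Illumina NextSeq 500. The tools named in the submitters' processing notes are BWA, MACS and MACS2 2.1.0, on build GRCh37.p2, with no order, options or threshold stated. The authors deposited interval and summit positions (unit: other) and 1 score per summit, with no stated unit. Intervals were called in 1 ChIP library.

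The 6 gene spans were fixed coordinates on GRCh37, and members and lists were chosen with earlier results of these data known. Every one of the 6 genes is named with all its intervals or, for genes with none, the nearest on either side. Distance ran from the nearest edge of an interval to the gene span. Printed starts are 1-based. Strands came from the RefSeq promoter table (GRCh38.p14), which matched 5 of the 6 genes, and for EGR3 from general knowledge. Neighbouring genes came from RefSeq by order only, and no position was converted between builds. Other genes of the pathway (serum response factor and its partners, MAP kinases, WT1 and chromatin remodellers) were not placed, as GRCh37 positions for them were not used here. Distances, tiling, joining and motif search were tested on simulated data. Alternatives varied distance, score limit, anchor and joining. Python 3.11.15, numpy 2.4.6, pandas 2.3.3 and matplotlib 3.10.9 were used.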

Additional observations from a re-analysis of the deposited data

How the results depend on the processing

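The number of genes with an interval stayed at 5 of 6 with a distance of 5, 25 or 50 kb, with scores at or above the median, and when measured from the gene start only. It was 4 at 1 kb, where EGR3 dropped out, and 3 at or above the 90th percentile of score, where EGR1 and EGR2 dropped out. The 17 intervals became 12, 15, 22 and 24 at 1, 5, 25 and 50 kb, 15 from the gene start only, 17 by summit, and 12 at or above the median score. They were 5 at or above the 90th percentile of all intervals, and 7 sites after joining neighbours within 1000 bp. Intervals at or above the median score numbered 9, 11, 16 and 18 at 1, 5, 25 and 50 kb. At 1 kb, EGR2 kept 1 of its 3 intervals and EGR3 none; at 25 kb, EGR1 had 7. Shifting the tiled windows to straddle their former edges, an alternative chosen after seeing the data, gave shares of 3.43 to 10.2%. No paired analysis was possible because each group has 1 library and no result comes from a test between groups. All values describe this library, and depth is unknown.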
